A study of Rattus norvegicus with 4 samples.

Results

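Immediate early genes are the genes a cell transcribes first after a stimulus, from transcription factors that are already present. The 10 described here were chosen by name, with earlier results of these data known. All 10 were found among the 32883 genes of the count table. They are the AP-1 subunits Fos, Fosb, Junb and Jund, the zinc finger factor Egr1, the orphan nuclear receptors Nr4a1 and Nr4a2, the bZIP factor Atf3, the nuclear protein Ier2 and the MAP kinase phosphatase Dusp1. Their mRNA was compared between carotid bodies (CBs) of Sprague Dawley rats at postnatal day 5 (neonates) and day 21 (adults), with 2 libraries per age and 4 in all. The series record gives a pool of CBs from 6 pups or 3 adults behind each library, and the paper's methods give larger pools and more replicates. The labels give no sex, genetic change, hypoxia or drug for either group. The paper states that females and males were both included and that sex differences were not considered. The adults were litter mates that had been left to grow. Pups were killed by urethane injection before dissection, and for the adults the sources used here do not name the agent.

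A stimulus such as a growth factor, depolarization, calcium entry or stress reaches these genes through the MAP kinases, through SRF with its ternary complex factors, and through CREB. Transcription starts within minutes and the mRNA levels fall soon after, because the mRNAs are short-lived and because several of the proteins act on the pathway itself. Fos proteins pair with Jun proteins to form AP-1, and Dusp1 removes the phosphates that activate MAP kinases. In the CB, whose glomus cells sense blood oxygen, some of these mRNAs are known to respond to hypoxia. Resting levels and responses to death or dissection cannot be told apart in these libraries.

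Nr4a1 on the one side and Nr4a2 and Ier2 on the other passed the adjusted p in opposite directions, so the 250 bases before their RefSeq start sites are shown (assembly GRCr8, 5′ to 3′). Capitals mark the matches to the motifs named below.

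Nr4a1 (chr7:134259888-134260137, plus strand): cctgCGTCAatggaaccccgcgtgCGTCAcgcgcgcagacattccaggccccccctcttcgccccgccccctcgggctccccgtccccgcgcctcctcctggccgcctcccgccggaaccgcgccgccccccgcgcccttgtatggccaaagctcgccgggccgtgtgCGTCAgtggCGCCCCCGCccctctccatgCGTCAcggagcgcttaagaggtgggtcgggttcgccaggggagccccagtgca

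Nr4a2 (chr3:62104888-62105137, minus strand): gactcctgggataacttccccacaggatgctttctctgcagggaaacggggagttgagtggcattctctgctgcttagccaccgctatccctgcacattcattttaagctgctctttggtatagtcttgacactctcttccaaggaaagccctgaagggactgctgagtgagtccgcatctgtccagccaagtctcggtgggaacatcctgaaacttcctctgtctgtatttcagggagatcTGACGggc

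Ier2 (chr19:40399123-40399372, plus strand): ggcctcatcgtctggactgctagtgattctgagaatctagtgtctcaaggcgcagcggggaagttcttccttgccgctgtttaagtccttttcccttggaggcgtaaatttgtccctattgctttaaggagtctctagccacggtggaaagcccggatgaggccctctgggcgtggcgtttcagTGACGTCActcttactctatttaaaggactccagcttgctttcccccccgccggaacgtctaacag

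A window of 300 bases, from 250 before to 50 after the start, was at hand for 8 of the 10 members, and Fos and Atf3 were not among them. The windows of Nr4a1 and Nr4a2 belong to a start that lies well inside the RefSeq span of the gene. Each was searched on both strands for 6 motifs. The full cAMP response element (CRE, TGACGTCA), to which CREB binds, was found in Jund, Ier2 and Dusp1, 3 of the 8, and in 1.91% of the 27457 promoters of the same length. Its core TGACG, which also lies inside every full CRE, was found in 7 of the 8 and in 22.0% of all promoters. The Nr4a1 window held 4 cores and the Nr4a2 window 1. The CArG box bound by SRF (CC, then 6 bases that are A or T, then GG) was found in Egr1, which held it 105 to 96 and 83 to 74 bases before the start, and in 1.64% of all promoters. The EGR motif GCGGGGGCG was found in Nr4a1, 73 to 65 bases before the start, and in 2.78% of all promoters. Neither the AP-1 motif (TGACTCA or TGAGTCA, 4.53% of all promoters) nor the NR4A motif AAAGGTCA (1.29%) was found in the 8 windows. The map of motif matches shows where they lie. A match describes the letters of these windows and not a bound site.

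**Figure D1:**
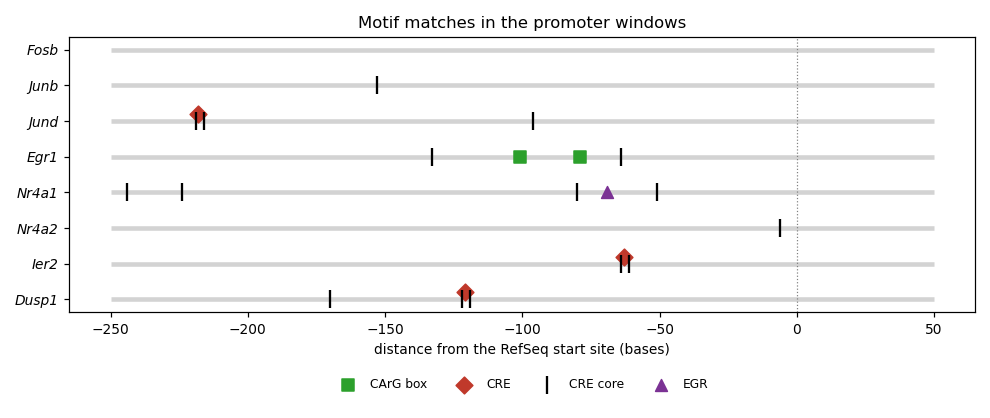
Motif matches in 8 promoter windows. Each grey line is a window from 250 bases before to 50 after the RefSeq start site (dotted line), the x axis is the distance from the start in bases, and symbols mark the middle of each match on either strand; the full CRE is drawn above the 2 cores it contains. Jund, Ier2 and Dusp1 hold a full CRE, Egr1 holds both CArG boxes, and Fosb holds no match.

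Totals per library ran from 36286191 to 39476110 estimated counts, so that 3 counts, taken as the floor of detection, were between 0.0760 and 0.0827 CPM, the unit in which a count is scaled to the library total. That floor covers counting error only. All members were above it in every library, with at least 42 counts, and none had a fractional count, which Salmon can give where reads match more than 1 gene. Fold changes are after TMM scaling, whose factors were 0.902 and 0.935 in the neonatal and 1.08 and 1.10 in the adult libraries. This scaling matters here, since with library size alone the median log2 fold change over the genes tested went from -0.0029 to -0.25. Fold changes are given as neonate over adult. Their standard error (SE) was worked out from the fold change and the F statistic of edgeR's quasi-likelihood (QL) test. The confidence intervals were built from that SE, so SE and interval are approximate. No transcript lengths were used, so the levels of different genes are not compared.

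Of the 10 members, Atf3 was the only one past the threshold of an adjusted p under 0.05 and at least a 2-fold change, and it was lower in neonates. That is 10% of the members, against 13.2% of the 13843 genes tested that were called lower in neonates and 7.68% that were called higher. None of the members was called higher at 2-fold by edgeR, DESeq2 or limma-voom, and at an unadjusted p under 0.05 in edgeR 2 were higher and 4 lower. At an adjusted p under 0.05 with no minimum fold, Atf3 and Nr4a1 were lower in neonates and Nr4a2 and Ier2 were higher, 20% in each direction. Over all genes the shares were 31.1% lower and 31.2% higher, both above the members' shares. With library size alone, 6 of the 10 members were lower at this adjusted p and 0 higher, against 43.3% lower and 18.7% higher over all genes. The all-gene share of 2-fold calls toward neonates went from 36.85% to 21.64%. The log2 fold change was negative for 7 members and positive for 3, with a median of -0.24 against -0.0029 for all genes. After TMM scaling the ages did not overlap for 6 members lower in neonates (60%) and 2 higher (20%). Over all genes tested these shares were 41.7% and 41.3%, so that a gap between the ages was common. Summed over the members, the level was 377 and 396 CPM in the neonatal libraries and 488 and 473 CPM in the adult libraries. After TMM scaling the sums were closer, at 420 and 424 CPM in neonates and 453 and 432 CPM in adults.

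**Figure D2:**
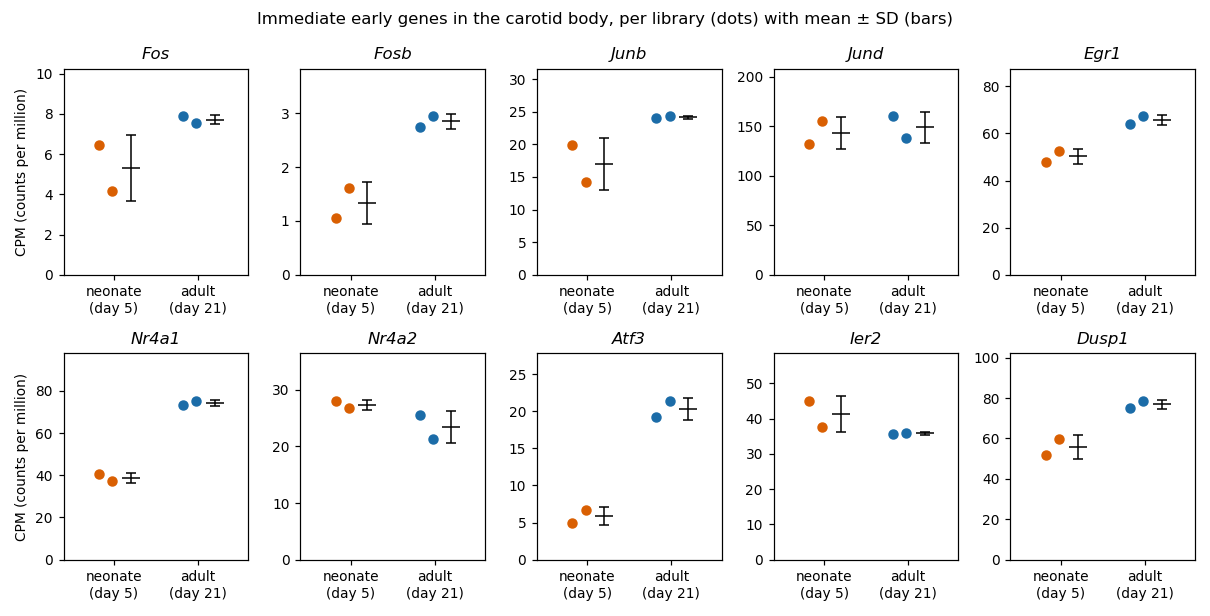
CPM of the 10 members in every library. Dots are single libraries (2 per age), bars beside them are the mean ± SD, and each y axis starts at 0. As a ratio, the ages are farthest apart for Atf3 (4.97 and 6.70 CPM against 19.3 and 21.4 CPM), while the libraries of both ages overlap for Jund.

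Atf3 (ENSRNOG00000003745) is a bZIP factor of the CREB family that is induced by stress and mostly represses transcription. It had 4.97 and 6.70 CPM in neonates and 19.3 and 21.4 CPM in adults. Both adult libraries were well above both neonatal libraries. Its log2 fold change was -1.56 (SE 0.17, 95% confidence interval -1.95 to -1.16, adjusted p = 8.5e-05 by edgeR QL), which is 2.94-fold higher in adults. The estimate ran from -1.80 to -1.38 over all alternatives tried and passed the test in each of them.

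Both nuclear receptors, Nr4a1 (ENSRNOG00000007607) and Nr4a2 (ENSRNOG00000005600), bind DNA without a known hormone. Nr4a2 is known from dopamine neurons, where it acts on genes of dopamine synthesis. Nr4a1 had 40.6 and 37.2 CPM in neonates and 73.4 and 75.2 CPM in adults, with a narrow spread at each age. Its log2 fold change was -0.69 (SE 0.096, interval -0.90 to -0.47, adjusted p = 0.00030 by edgeR QL), or 1.61-fold higher in adults. Nr4a2 went the other way, with 28.0 and 26.8 CPM in neonates and 25.5 and 21.4 CPM in adults. The libraries of both ages did not overlap, but those nearest each other were close. The log2 fold change of Nr4a2 was 0.47 (SE 0.12, interval 0.20 to 0.74, adjusted p = 0.0074 by edgeR QL), or 1.39-fold higher in neonates. With library size alone it was 0.23 (adjusted p = 0.12) and without adult replicate 2 it was 0.34 (adjusted p = 0.060), so this call was lost under both.

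The ratio of both receptors within a library does not depend on the scaling. The log2 ratio of Nr4a2 to Nr4a1 counts was -0.53 and -0.48 in the neonatal libraries and -1.53 and -1.81 in the adult libraries. Its mean was higher in neonates by 1.16 on the log2 scale, with an SD of 0.041 in neonates and 0.20 in adults. The ages did not overlap, and the two-sided exact permutation p was 0.333, which is the smallest that 2 libraries against 2 can give. Gene pairs were chosen with the values known. The third member of the family, Nr4a3, was low, with 0.735 and 0.286 CPM in neonates and 1.40 and 2.18 CPM in adults. It had a log2 fold change of -1.55 (adjusted p = 0.027 by edgeR QL), which lay between -2.41 and -1.0 when single libraries were left out and missed the threshold without neonate replicate 2 (adjusted p = 0.086) and without adult replicate 2 (adjusted p = 0.18).

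**Figure D3:**
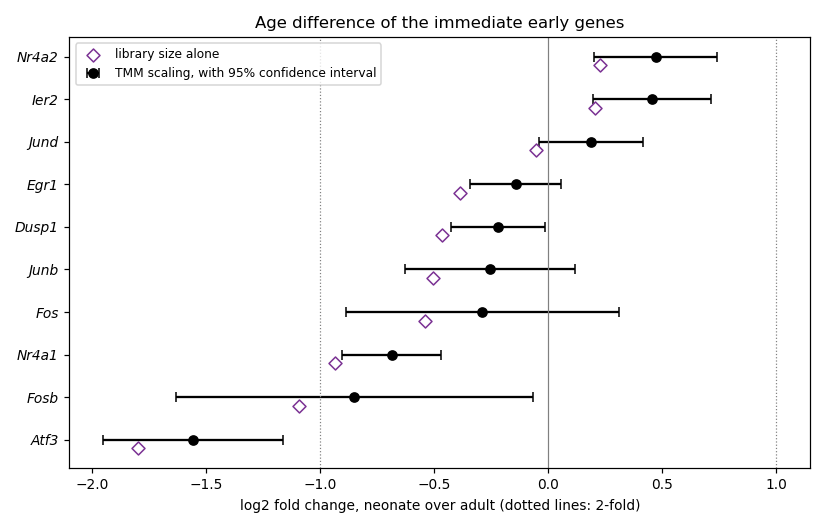
Log2 fold change of each member, neonate over adult (x axis; dotted lines mark 2-fold). Black dots are edgeR estimates after TMM scaling with their 95% confidence intervals, and open diamonds are the estimates scaled by library size alone. Atf3, at -1.56, is the only member past 2-fold with TMM, and every diamond lies to the left of its dot.

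Fos (ENSRNOG00000008015), the best known activity marker among these genes, had 6.46 and 4.16 CPM in neonates and 7.89 and 7.55 CPM in adults. In CPM the ages did not overlap, but after TMM scaling neonate replicate 1 (7.18 CPM) lay between the adult libraries (7.31 and 6.90 CPM). The log2 fold change of Fos was -0.29 (SE 0.26, interval -0.89 to 0.31, adjusted p = 0.36 by edgeR QL). The neonatal libraries decided it, since it was -0.67 (adjusted p = 0.031) without neonate replicate 1 and 0.023 (adjusted p = 0.93) without neonate replicate 2. No difference in Fos was detected with these libraries, and the interval holds both lower and higher levels in neonates.

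Fosb (ENSRNOG00000046667), the closest relative of Fos, was at the lowest counts of the members, from 42 to 107. It had 1.06 and 1.61 CPM in neonates and 2.75 and 2.95 CPM in adults. The ages did not overlap, as was common over all genes tested. The log2 fold change of -0.85 (SE 0.35, interval -1.63 to -0.066) had an adjusted p of 0.058 by edgeR QL. It passed with library size alone (adjusted p = 0.024), by limma-voom (adjusted p = 0.044) and without neonate replicate 2 (adjusted p = 0.021). The log2 ratio of Fosb to Fos was -2.60 and -1.37 in neonates and -1.52 and -1.36 in adults, and the ages overlapped.

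Junb (ENSRNOG00000042838), which pairs with Fos proteins, had 19.9 and 14.2 CPM in neonates and 24.0 and 24.3 CPM in adults. As with Fos, neonate replicate 1 was near the adults and neonate replicate 2 was lower. The log2 fold change of Junb was -0.26 (SE 0.16, interval -0.63 to 0.12, adjusted p = 0.20 by edgeR QL). It was -0.55 (adjusted p = 0.0079) without neonate replicate 1 and -0.0041 (adjusted p = 0.98) without neonate replicate 2, and -0.50 (adjusted p = 0.021) with library size alone. Jund (ENSRNOG00000019568), a Jun protein that is held at a steady level in many resting cells, had 132 and 155 CPM in neonates and 160 and 138 CPM in adults. Its libraries overlapped between ages, and the log2 fold change of 0.19 (SE 0.10, adjusted p = 0.13 by edgeR QL) turned to -0.056 (adjusted p = 0.67) with library size alone. The log2 fold change of Jund moved with the adult libraries, to 0.31 without adult replicate 1 and 0.073 without adult replicate 2. It stayed within 2-fold. Jun itself is no member and was looked up after its value had been seen. It had 51.4 and 64.8 CPM in neonates against 108 CPM in each adult library, and was lower in neonates by the adjusted p (log2 fold change -0.65, adjusted p = 0.00059 by edgeR QL).

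The neonatal libraries, which were apart for Fos and Junb, were also apart in markers of other tissue. Summed over 3 parathyroid markers, including Pth, neonate replicate 1 held 1616 CPM and neonate replicate 2 held 197 CPM, against at most 0.0551 CPM in adults. Of these 3, Pth and Gcm2 were at 0 counts in the adult libraries. The sum of 3 erythroid markers was 7961 and 4803 CPM in neonates and 2308 and 2100 CPM in adults, and all 3 markers were called higher in neonates. In CPM, Fos, Junb, Nr4a1, Nr4a2 and Ier2 were higher in neonate replicate 1 than in neonate replicate 2, and the other 5 members were lower. The part of the parathyroid and erythroid RNA in these levels was not tested.

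Egr1 (ENSRNOG00000019422), a zinc finger factor induced by growth factors and activity, had 48.0 and 52.6 CPM in neonates and 64.1 and 67.4 CPM in adults. The ages did not overlap in CPM or after TMM scaling, but the step was small. Its log2 fold change was -0.14 (SE 0.088, interval -0.34 to 0.058, adjusted p = 0.19 by edgeR QL), and -0.39 (adjusted p = 0.0071) with library size alone. Dusp1 (ENSRNOG00000003977) had 51.7 and 59.8 CPM in neonates and 75.3 and 78.5 CPM in adults. The log2 fold change of Dusp1 was -0.22 (SE 0.091, interval -0.43 to -0.015, adjusted p = 0.060 by edgeR QL). By edgeR QL it passed with library size alone (adjusted p = 0.0036), with a mean of at least 5 CPM (adjusted p = 0.034) and with a replicate block (adjusted p = 0.040). Without neonate replicate 2 the log2 fold change of Dusp1 was -0.29. The log2 ratio of Dusp1 to Egr1 was 0.11 and 0.18 in neonates and 0.23 and 0.22 in adults, a difference of -0.080.

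Ier2 (ENSRNOG00000054344), a nuclear protein of the early response, had 45.0 and 37.6 CPM in neonates and 35.5 and 36.1 CPM in adults. The second neonatal library was close to the adults. Its log2 fold change was 0.45 (SE 0.11, interval 0.20 to 0.71, adjusted p = 0.0075 by edgeR QL), or 1.37-fold higher in neonates. With library size alone it was 0.21 (adjusted p = 0.13) and the call was lost. Within a library the log2 ratio of Ier2 to Egr1 was -0.091 and -0.48 in neonates and -0.85 and -0.90 in adults. For Atf3 over Fos it was -0.38 and 0.69 in neonates and 1.29 and 1.5 in adults. Neither pair overlapped between ages.

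**Figure D4:**
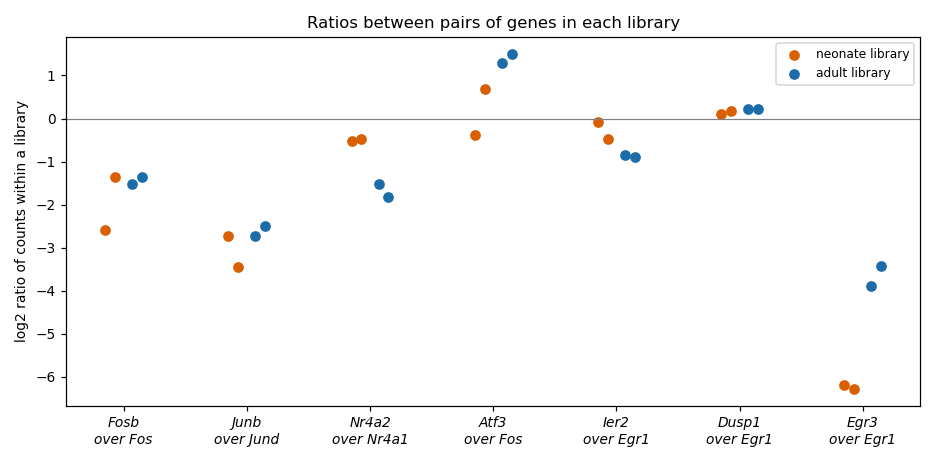
Log2 ratio of the counts of 2 genes within each library (y axis) for 7 pairs, with neonatal libraries in orange and adult libraries in blue. The ratio of Nr4a2 to Nr4a1 lies at -0.53 and -0.48 in neonates and at -1.53 and -1.81 in adults, and the ratio of Egr3 to Egr1 is also apart, whereas Fosb over Fos and Junb over Jund overlap.

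The further genes of the response were taken from 10 lists with 125 genes, of which 113 were tested. Of these, 23 were called lower in neonates at 2-fold (20.4%, against 13.2% of all genes) and 4 higher (3.54%, against 7.68%). At an adjusted p under 0.05 alone, 47 were lower and 25 higher, or 41.6% and 22.1% against 31.1% and 31.2% of all genes. No test of the lists as sets was run, and the lists were chosen with earlier results of these data known.

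Among the other EGR and NR4A genes and the NAB corepressors, 2 of 5 tested were called lower. Egr3, which follows Egr1 in many responses, had 0.659 and 0.675 CPM in neonates and 4.29 and 6.28 CPM in adults, and its log2 fold change of -2.73 (adjusted p = 0.00016 by edgeR QL) was the lowest among the related genes tested. The log2 ratio of Egr3 to Egr1 was -6.19 and -6.28 in neonates and -3.90 and -3.42 in adults. Nr4a3 was the other one called. Egr2, which drives myelination, is named for its spread, with 1.67 and 8.21 CPM in neonates and 8.97 and 9.84 CPM in adults. It was named after its values were seen. Neonate replicate 1 was far below the other 3 libraries. The log2 fold change of Egr2 was -0.70 (adjusted p = 0.28 by edgeR QL) with all libraries. It was 0.025 (adjusted p = 0.92) without neonate replicate 1 and -2.21 (adjusted p = 3.6e-05) without neonate replicate 2, so 1 library decided it.

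Of 12 AP-1 and bZIP partners, 7 were tested and 5 were lower at an adjusted p under 0.05, 2 of them past 2-fold, and the list's median was -0.78 on the log2 scale. These were Atf7 at -1.36 and Atf2 at -1.17, both CREB-family factors that pair with Jun. Among 30 other primary response genes, 11 were called lower and 1 higher, with a median of -0.46. Ptgs2, the inducible cyclooxygenase, had 1.34 and 2.0 CPM in neonates and 8.02 and 10.7 CPM in adults (log2 fold change -2.24, adjusted p = 0.00018 by edgeR QL). Trib1, a pseudokinase, was at -1.83. Plk2, a kinase induced by activity in neurons, was the one higher in neonates, with 86.7 and 105 CPM against 42.7 and 52.4 CPM (log2 fold change 1.26, adjusted p = 3.4e-05 by edgeR QL).

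Among the factors that act on early promoters, all 5 tested genes of SRF and its cofactors lay within 2-fold, with 3 lower and 1 higher at an adjusted p under 0.05, and Srf itself, named after its value was seen, was at -0.44 (adjusted p = 0.0025 by edgeR QL). Of 8 genes for CREB and its coactivators, 2 were called lower, Creb1 at -1.50 and the acetyltransferase Ep300 at -1.32, with a median of 0.14. Creb1 had fractional counts in 2 libraries, so its level is uncertain. Of 23 MAP kinase genes tested, 2 were called lower and 2 higher, with a median of -0.12. Braf, a kinase upstream of ERK, was at -1.78, and Map2k7, upstream of JNK, at -1.63. Both called higher act in the p38 branch, Mapk11 at 1.81 and Map2k3 at 1.81, and Map2k3 had fractional counts in all 4 libraries. The adult libraries of Map2k3 were apart, at 11.9 and 5.55 CPM, and its log2 fold change was 2.47 without adult replicate 1 and 1.36 without adult replicate 2.

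Of the feedback genes, 2 of 8 other dual-specificity phosphatases were called lower, Dusp8 at -2.30 and Dusp16 at -1.58, both of which act on JNK and p38. Among 6 factors that bind AU-rich mRNA ends, Zfp36, which speeds the decay of early mRNAs, was lower at -1.07 (adjusted p = 5.1e-05 by edgeR QL) and Hnrnpd was higher at 1.30. Hnrnpd had fractional counts in 2 libraries. Heat shock genes, given because handling can induce some of them, all lay within 2-fold. Of 11 tested, 5 were higher and 3 lower at an adjusted p under 0.05, with a median of 0.13. The higher ones were Hspa8, Dnaja1, Hsp90aa1, Hspe1 and Hsf1, and the lower ones Hspb1, Hsph1 and Dnajb1. The others were Hspa1b at -0.39, Bag3 at 0.13 and Hspd1 at 0.059. Hspa8, Hsp90aa1 and Hspa1b had fractional counts. The part of handling in these levels was not tested. Of 10 integrated stress response genes, 1 was called, Ddit4, an inhibitor of mTORC1 that also responds to hypoxia and glucocorticoids, at -1.82 (adjusted p = 2.0e-06 by edgeR QL), while 2 were higher and 3 lower at an adjusted p under 0.05.

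**Figure D5:**
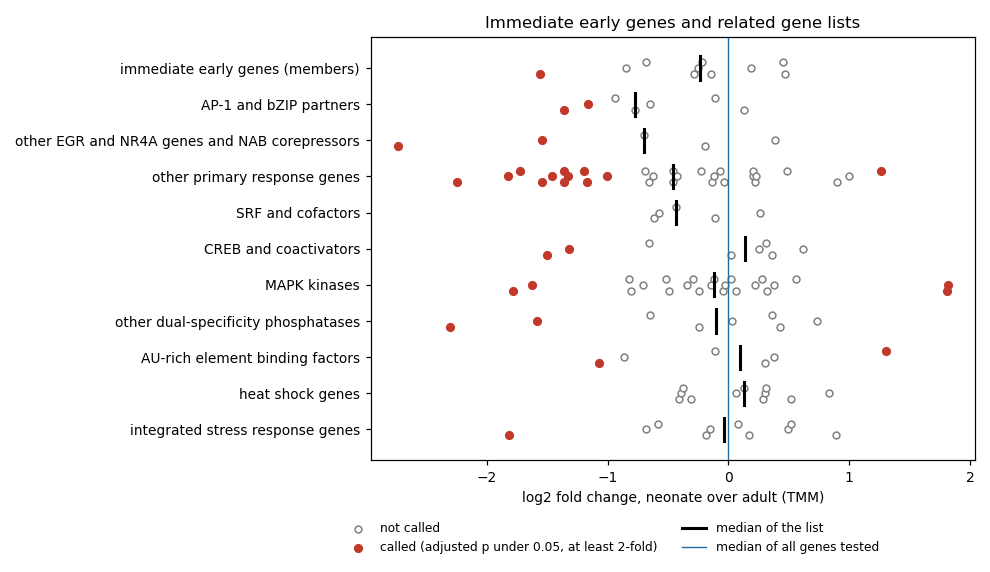
Log2 fold change, neonate over adult (x axis), of the members and of the related genes tested, 1 row per list. Filled dots are genes called at an adjusted p under 0.05 and at least 2-fold, open dots are not called, black bars are list medians and the blue line is the median of all genes tested. Of the 27 related genes called, 23 lie on the left, toward adults, and the medians run from -0.78 for the AP-1 and bZIP partners to 0.14 for CREB and its coactivators.

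The libraries are of whole tissue, where fewer cells of a type and less RNA per cell cannot be told apart, and marker lists moved with age as well. Glomus cell markers (8 of 8 found, including Th) summed to between 4278 and 5379 CPM in neonates and between 4634 and 5501 CPM in adults, with 4 higher and 2 lower at an adjusted p under 0.05. Among those higher, Chga was uneven between the neonatal libraries, with more in neonate replicate 1, which also held more parathyroid marker RNA. Macrophage markers summed to 50.4 and 55.5 CPM in neonates and 95.2 and 97.1 CPM in adults, with 3 of 5 lower in neonates and 1 higher. Fibroblast markers were at 5577 and 7023 CPM against 8936 and 9509 CPM, with 3 of 4 lower in neonates. Smooth muscle markers were at 548 and 593 CPM against 783 and 927 CPM, with 2 of 4 lower. Endothelial markers differed less, at 836 and 897 CPM against 973 and 1003 CPM. These sums are in CPM without TMM scaling. After TMM scaling the median log2 fold change of the 5 endothelial markers was 0.17, so their direction depended on the scaling. At an adjusted p under 0.05, 1 of them was higher and 1 lower in neonates. Neuron markers were higher in neonates, at 948 and 818 CPM against 601 and 471 CPM, with 4 of 4 higher. No marker of these lists was at 0 in all libraries. The part of these shifts in the members' levels was not tested.

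By their profile over the 4 libraries, the genes nearest to the median profile of the members were Chst2, Phyh, Bsdc1, Zfp532 and Gfpt1, at Euclidean distances of 0.0092, 0.015, 0.017, 0.018 and 0.020 in centred log2 CPM. Among the members, Egr1 (0.11) and Dusp1 (0.15) were nearest to that median and Atf3 (1.40) was farthest from it.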

How the data were processed

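RNA of pooled CBs was sequenced after poly A+ selection as paired-end reads. The authors deposited estimated counts per gene, not normalized and not filtered, which were made with STAR and Salmon (1.5.2 in the submitters' processing notes) on Rnor_6.0 and summed from transcripts. Estimated counts were rounded. Genes annotated as other than protein-coding in RefSeq (GRCr8, matched by symbol) were removed (636). The 13665 genes for which no such annotation was found were kept, so some ribosomal and other non-coding RNA entries remained. Genes that reached 1 CPM in 2 or more libraries were tested. Ages were compared in R 4.3.3 by edgeR 4.0.16 (quasi-likelihood test, TMM, no covariates, Benjamini-Hochberg over 13843 genes). The procedure was checked on simulated counts. Genes were called at an adjusted p under 0.05 and at least 2-fold.

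The members and lists were chosen with earlier results of these data known. Beside the members, the text names the 2 called genes of each list and direction with the largest log2 fold change. It also names the 5 nearest profiles (prior count 2) and the heat shock genes tested. Where a symbol had several entries, the one with most counts was used. Nothing says whether the libraries of an age came from separate litters, so p-values measure the spread between these libraries. Alternatives were DESeq2 1.42.0, limma-voom (limma 3.58.1), other scalings and filters, all genes kept, no minimum fold, a replicate block and each library left out. Figures were drawn with matplotlib 3.10.9. A marker gene and the summed list that holds it are not reported here.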

Additional observations from a re-analysis of the deposited data

How the results depend on the processing

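Counts of members called at 2-fold (1 in all, 1 lower and 0 higher in neonates) moved to 2, 2 and 0 with library size alone, where Fosb joined Atf3, and to 4, 2 and 2 with no minimum fold. They ran from 1 to 2 in all, and from 1 to 2 lower, when single libraries were left out, 2 being without neonate replicate 2. At an adjusted p alone, the 2 lower members became 6 with library size alone and 2 to 4 when single libraries were left out (4 without neonate replicate 1 and 4 without neonate replicate 2), and the 2 higher members became 0 and 1 to 3 (1 without adult replicate 2). Of the related genes, the 27 called (23 lower, 4 higher) became 72, 47 and 25 with no minimum fold, and the 4 higher ran from 4 to 7 with single libraries left out (7 without neonate replicate 2).

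Sign changes were seen for Fos without neonate replicate 2 (0.023, in a range from -0.67 to 0.023), for Jund with library size alone (-0.056), and without neonate replicate 1 for Egr2 (0.025, from -2.21 to 0.025). Of 129 fold changes of members under the alternatives, 112 kept direction and side of an adjusted p of 0.05, whatever their fold. A further 12 newly fell under 0.05, 3 no longer did and 2 changed sign. The deviations of same-numbered libraries from their age mean were hardly correlated across genes (-0.015). This is a single correlation and cannot show whether same-numbered libraries shared a litter or batch. With a replicate block 1 member and 28 related genes were called. Dusp1 (-0.22, adjusted p = 0.040) and Egr2 (-1.02, adjusted p = 0.0064) were newly under 0.05 by edgeR QL. Except as said in the report, the cause of these moves was not tested. With 2 libraries per age, an exact test of one gene cannot go below 0.333.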
